A study of Mus musculus with 45 samples.

Results

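The MYC family comprises the transcription factor genes Mycn, Myc and Mycl and their shared partner Max. The 4 members were looked up by symbol in the annotation of the array, and every probe set paired with one of them was kept. Mycn was measured by 3 probe sets, Mycl by 3 and Myc by 1, so that 3 genes with 7 probe sets are described, of 17097 genes and 45141 probe sets on the arrays. Max was not named in that annotation and is not analysed here. Where a gene had several probe sets, the one that stood for the gene was chosen by its mean signal, the highest over all 45 arrays, so its level is a description, and the others are given beside it.

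MYC proteins bind DNA as pairs with MAX, at the E-box sequence CACGTG, and raise the transcription of genes for ribosome building, metabolism and the cell cycle. MXD proteins, MNT and MGA compete for MAX and oppose them, and MYC proteins also repress some genes, among them inhibitors of cyclin-dependent kinases. In the brain, Mycn drives the division of neural precursors, where it is induced by Sonic hedgehog signalling, and extra copies of MYCN or MYC occur in childhood high-grade glioma. Mycl has been studied less in this tissue.

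The arrays held total RNA of mouse brain labelled as a glioblastoma model in the strain CD-1 nude. All groups, EGFRvIII included, carried the p53null background. Per the design text, primary mouse astrocytes without p53 received PDGFRA through retroviral constructs, either in its wild-type form or as 1 of 6 mutants. The receptors were EGFRvIII, a truncated and constitutively active form of the epidermal growth factor receptor (8 arrays), Pdgfra WT (1 array), and the mutants Pdgfra E7 del (3 arrays), Pdgfra C450 ins, Pdgfra D842V and Pdgfra E10 del (5 arrays each), and Pdgfra V544ins and Pdgfra E10 del.v2 (9 arrays each). The ages of the mice, the number of cultures behind a group and the promoter of the constructs are not given in the sources used here. Nothing in the labels says that arrays of a group came from separate animals, so the p-values measure only the spread between these samples. For the WT receptor the single array is described and not tested.

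Signals are on the log2 scale. The arrays differed in how much neuronal RNA they held. The mean of 15 neuron marker genes ranged from 4.89 to 11.61, and arrays high in it are called rich in host brain here. On the first principal component 4 arrays, namely E10 del.v2 replicate 2 and replicates 1, 2 and 3 of E10 del, stood apart from the other 41. Their neuron means were 11.61, 11.05, 10.97 and 10.29, their cell cycle list means were 4.51, 5.60, 5.90 and 5.21, and the 3' minus 5' signal of Actb, a sign of RNA integrity, was 1.19, 0.70, 0.93 and 0.91. In the other 41 arrays the neuron means ran from 4.89 to 10.89, the cell cycle means from 5.67 to 9.18 and the Actb values from 0.43 to 0.87. EGFRvIII replicates 4, 5 and 6 had low means of the oligodendrocyte progenitor list, at 7.63, 6.62 and 8.50 against 9.89 to 11.17 in the other 5. Sample titles held numbers from 1 to 30 or from 41 to 64. All EGFRvIII arrays lay in the upper range and all C450 ins, D842V and E10 del arrays in the lower, so that for these 3 mutants the range and the genotype cannot be told apart. In bulk RNA, fewer cells of a type and less RNA per cell cannot be told apart either.

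Promoters are shown first, since they let the members and the genes that moved with them be compared at the level of sequence. Each window runs from 250 bases before to 50 after the gene's start in RefSeq (GRCm38.p6), 5' to 3' on the gene's own strand. Windows were found for Mycn at chr12:12941787-12942086 (minus strand), Mycl at chr4:122995681-122995980 (plus strand), Cdk4 at chr10:127063285-127063584 (plus strand) and Anp32b at chr4:46450676-46450975 (plus strand). Cdk4, a cyclin-dependent kinase gene, and Anp32b, the gene of a histone chaperone, are included because their signals followed Myc most closely. Capitals mark TTTGGCGC, a sequence that E2F factors bind, in the 2 family members, and CACGTG in Cdk4 and Anp32b.
Mycn: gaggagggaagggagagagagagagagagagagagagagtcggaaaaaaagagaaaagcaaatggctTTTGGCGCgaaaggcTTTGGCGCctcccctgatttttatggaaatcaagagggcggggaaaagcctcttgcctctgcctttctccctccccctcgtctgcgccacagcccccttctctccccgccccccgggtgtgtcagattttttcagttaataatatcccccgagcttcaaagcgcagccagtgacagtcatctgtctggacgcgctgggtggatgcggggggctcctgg
Mycl: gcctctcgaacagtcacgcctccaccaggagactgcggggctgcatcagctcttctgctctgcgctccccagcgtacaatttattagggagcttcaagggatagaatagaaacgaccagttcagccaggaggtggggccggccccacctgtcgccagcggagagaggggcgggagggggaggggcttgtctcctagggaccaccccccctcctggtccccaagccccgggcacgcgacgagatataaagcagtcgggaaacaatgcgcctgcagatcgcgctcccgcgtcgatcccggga
Cdk4: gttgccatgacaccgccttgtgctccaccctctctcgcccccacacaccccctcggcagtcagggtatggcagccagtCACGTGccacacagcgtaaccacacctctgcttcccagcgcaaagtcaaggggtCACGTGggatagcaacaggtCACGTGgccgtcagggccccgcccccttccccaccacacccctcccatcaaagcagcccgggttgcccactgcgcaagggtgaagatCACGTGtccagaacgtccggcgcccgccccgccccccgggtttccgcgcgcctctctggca
Anp32b: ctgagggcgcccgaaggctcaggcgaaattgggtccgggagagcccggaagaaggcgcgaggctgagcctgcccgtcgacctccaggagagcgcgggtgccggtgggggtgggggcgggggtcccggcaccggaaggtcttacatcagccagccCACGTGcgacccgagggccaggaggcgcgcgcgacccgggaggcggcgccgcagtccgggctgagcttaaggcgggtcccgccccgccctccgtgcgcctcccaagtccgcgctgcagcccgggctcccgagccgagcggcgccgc

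Both strands were searched, CACGTG reads the same on both and was counted once, and none of the 4 windows held both motifs (0 of 4). The Mycn window held TTTGGCGC at 2 places, starting 183 and 168 bases before the start site, and the Mycl window held it at 0. This motif was in 0.514% of all 32851 windows, and in 3 of 18 windows of the cell cycle list, those of the replication licensing genes Mcm3, Mcm5 and Mcm6. It was also in 1 of 24 windows of each list of MYC targets (Ncl and Cdc25a) and in 1 of 11 of the astrocyte list (Slc4a4). The Cdk4 window held CACGTG at 4 places, the first 172 and the last 11 bases before the start site, and the Anp32b window held it at 1 place, 96 bases before. CACGTG was in 7.15% of all windows. It was in 7 of 24 windows of the MYC targets of ribosome biogenesis (29.2%), in 8 of 24 of the MYC targets of metabolism and growth (33.3%), in 4 of 9 of the MYC network partners, in 2 of 18 of the cofactors (11.1%), in 1 of 18 of the cell cycle list (5.56%), and in 0 of 6 of the genes MYC represses. Of the neuron list, which is not a MYC pathway list, 2 of 11 windows held it (18.2%). These are matches of letters, and binding was not measured.

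Mycn gave readings that differed between its probe sets. Probe set 1425923_PM_at had a mean of 12.51 and ranked 109 of 45141 probe sets by mean signal, with 43 of 45 arrays above 9. Probe set 1417155_PM_at had a mean of 6.20, between 4.07 and 8.52, and 1425922_PM_a_at had a mean of 3.65, between 2.92 and 4.22. The 23 control probe sets for nonspecific binding had means from 2.16 to 4.67, so 1425922_PM_a_at lay within the range of nonspecific signal. The brighter probe set exceeded the second by 0.51 to 9.19 in single arrays, with a median of 6.48. Over 41 arrays their Pearson correlation was 0.319 (Spearman rho 0.336, permutation p adjusted over 69 relations 0.0983). Which of them follows the Mycn transcript was not tested, and values of both are given for most results.

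On the brighter Mycn probe set, signal was high and nearly even in most groups and low in a few arrays. The highest signal of any probe set on any array was 13.82, so most of these readings lay near the top of the scale. How far signal there still follows the amount of RNA was not tested. EGFRvIII had a mean of 13.22 ± 0.23 (SD, n = 8), with values from 12.72 to 13.45 and a median of 13.28. The WT array read 13.45. In E7 del the 3 arrays read 13.27, 13.58 and 13.06, within the EGFRvIII range except for the highest. C450 ins arrays read 12.66, 13.09, 13.09, 13.14 and 12.59, of which 2 lay below all EGFRvIII arrays.

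V544ins had a mean of 12.64 ± 0.54 (SD, n = 9), from 11.99 to 13.26 with a median of 12.66, and 5 of its 9 arrays lay below all EGFRvIII arrays. E10 del.v2 had values from 9.13 to 13.30 with a median of 13.07, where the lowest belonged to the array that stood apart and the other 8 lay between 12.86 and 13.30. E10 del fell into a low and a high set, with 8.89, 9.61 and 7.53 in the 3 arrays that stood apart and 12.83 and 13.0 in the other two. D842V arrays read 10.81, 12.32, 12.35, 12.03 and 12.22, all 5 below every EGFRvIII array.

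In the order of the group means, from WT and E7 del at the top through EGFRvIII, C450 ins, E10 del.v2, V544ins and D842V to E10 del, most neighbours differed by less than the larger of their SDs. The exceptions were EGFRvIII and C450 ins, which differed by 0.30, and V544ins and D842V, which differed by 0.70. On the second Mycn probe set the order was another one, with E10 del highest at 6.52 ± 0.43 (SD, n = 5), D842V lowest at 5.84 ± 0.46 (SD, n = 5) and no pair of neighbours apart by more than the larger SD. EGFRvIII arrays were the most spread there, at 6.14, 8.52, 7.89, 4.56, 4.07, 5.0, 6.59 and 6.32. The lowest 3 of them were replicates 4, 5 and 6.

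**Figure D1:**
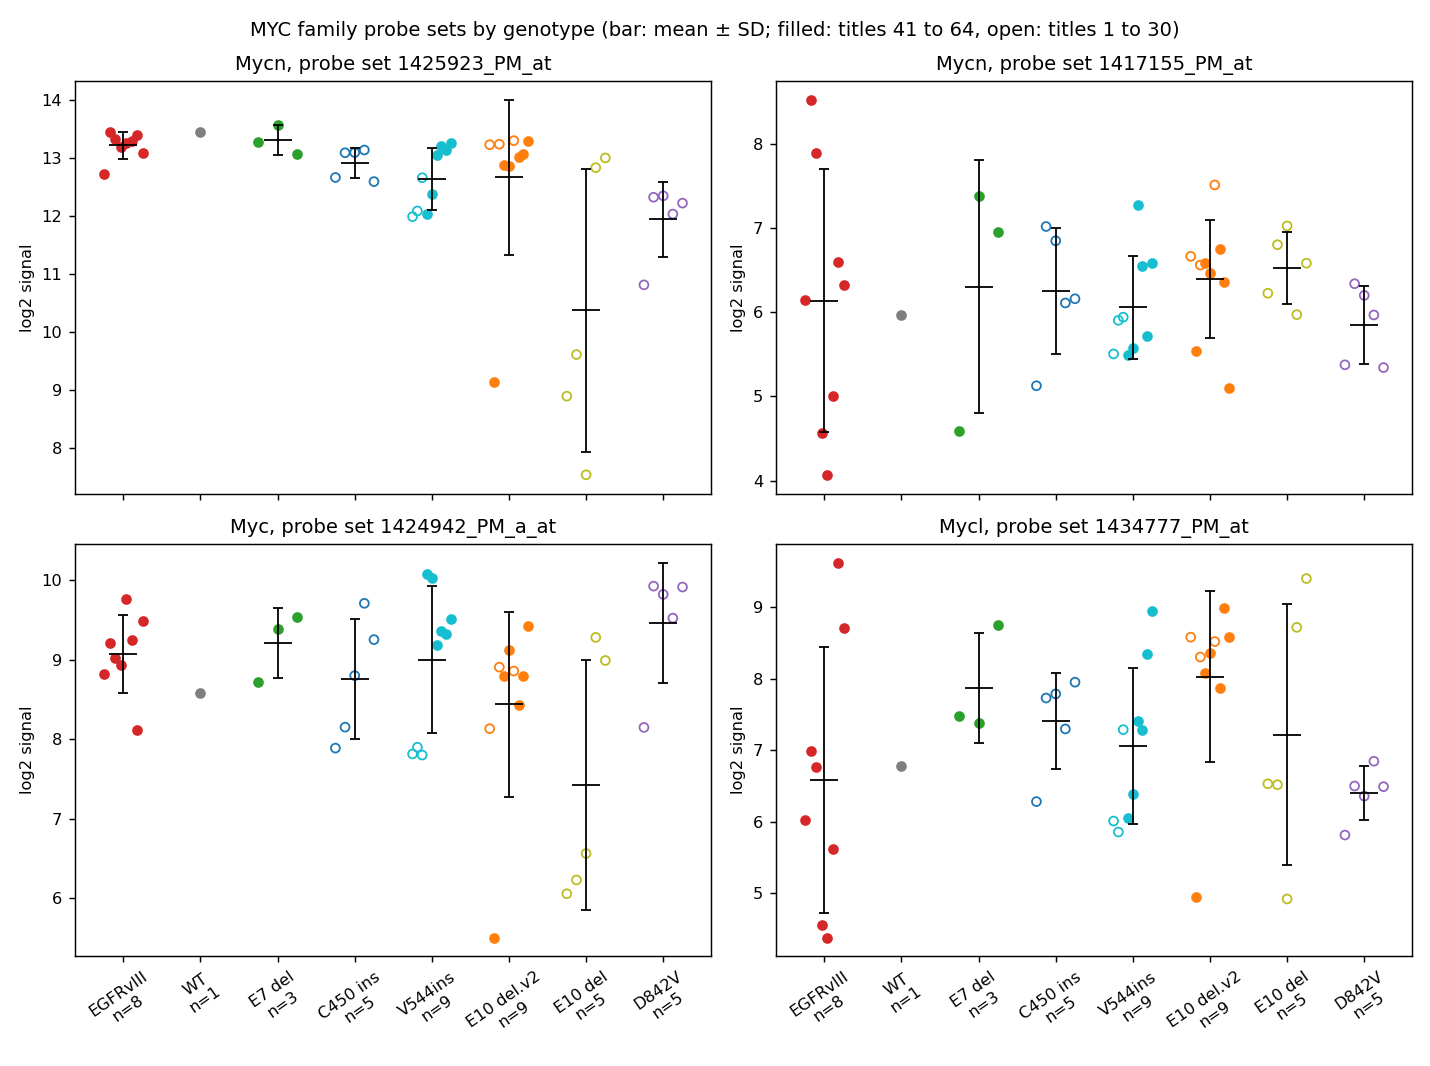
Log2 signal of the 2 brighter Mycn probe sets, the Myc probe set and the Mycl probe set that stands for the gene (vertical axes) in the 8 genotypes (horizontal axis), with 1 point per array and the mean ± SD as bars. Filled points are arrays with title numbers 41 to 64 and open points those with 1 to 30; the low Mycn readings of 7.53 to 9.61 belong to 3 E10 del arrays and 1 E10 del.v2 array.

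Myc, the family member induced by growth factor receptors in many cell types, was measured by 1 probe set with a mean of 8.76, from 5.50 to 10.08. EGFRvIII arrays ranged from 8.12 to 9.77 with a median of 9.11 and a mean of 9.08 ± 0.49 (SD, n = 8). E7 del arrays read 8.72, 9.38 and 9.54, C450 ins arrays 7.89, 8.15, 8.80, 9.71 and 9.26, and the WT array 8.58. These values overlapped with EGFRvIII, apart from 1 C450 ins array below its range.

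D842V had the highest mean, 9.47 ± 0.76 (SD, n = 5), with arrays at 8.15, 9.93, 9.82, 9.53 and 9.92, of which 3 exceeded every EGFRvIII array. V544ins spread from 7.80 to 10.08 with a median of 9.32, and E10 del.v2 from 5.50 to 9.42 with a median of 8.79. E10 del arrays read 6.05, 6.23 and 6.56 in the set that stood apart and 9.28 and 8.99 in the other two, so the low mean of 7.42 ± 1.58 (SD, n = 5) came from 3 arrays. No neighbours in the order of Myc means (D842V, E7 del, EGFRvIII, V544ins, C450 ins, WT, E10 del.v2, E10 del) differed by more than the larger of their SDs.

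Mycl, the family member first found amplified in lung cancer, was read from probe set 1434777_PM_at, with a mean of 7.20 and a range from 4.38 to 9.62. Its other probe sets, 1422087_PM_at and 1422088_PM_at, had means of 3.36 and 3.31, within the range of the nonspecific controls. Even so, over 41 arrays they followed the first, with Pearson correlations of 0.805 and 0.894 (permutation p adjusted over 69 relations 6.27e-05 for each, the smallest value the permutations allowed), and Spearman rho of 0.832 and 0.957.

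Mycl spread widely within genotypes. EGFRvIII arrays read 6.03, 6.99, 6.77, 4.56, 4.38, 5.62, 9.62 and 8.70, which spans the whole range of the series. E10 del.v2 had the highest mean, 8.03 ± 1.20 (SD, n = 9), from 4.95 to 8.98 with a median of 8.36, and without the array that stood apart its lowest value was 7.87. V544ins ranged from 5.86 to 8.95 with a median of 7.28. E10 del arrays read 6.53, 6.52, 4.92, 8.72 and 9.40, with the 2 highest outside the set that stood apart.

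C450 ins arrays read 6.28, 7.73, 7.79, 7.30 and 7.95, E7 del arrays 7.49, 7.38 and 8.76, and the WT array 6.78. D842V was the lowest and the tightest group, with 5.82, 6.5, 6.36, 6.85 and 6.49 and a mean of 6.40 ± 0.37 (SD, n = 5). In the order of the means (E10 del.v2, E7 del, C450 ins, E10 del, V544ins, WT, EGFRvIII, D842V) no neighbours differed by more than the larger of their SDs.

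The comparison of the 6 mutants with EGFRvIII asked how the family differed between tumours driven by mutant PDGFRA and by another receptor. None of the 3 genes was called at an adjusted p under 0.05, where 8.9% of the 11809 genes tested were, 3.55% higher and 5.35% lower (limma, Benjamini-Hochberg over all genes tested). The mean of the mutant groups minus EGFRvIII was -0.91 ± 0.42 (SE) for Mycn on the brighter probe set (adjusted p = 0.149), -0.36 ± 0.37 for Myc (adjusted p = 0.535) and 0.75 ± 0.50 for Mycl (adjusted p = 0.324). The other Mycn probe sets, 1417155_PM_at and 1425922_PM_a_at, gave 0.092 ± 0.36 and 0.061 ± 0.12. Without the 4 arrays that stood apart, the differences were -0.41 ± 0.16 for Mycn, -0.012 ± 0.26 for Myc and 1.12 ± 0.42 for Mycl, and none was called (adjusted p = 0.105, 0.983 and 0.1). With the neuron mean as a covariate the Myc difference was 0.035. Without EGFRvIII replicates 4, 5 and 6 the Mycl difference was -0.29. Neuron means were 7.67 ± 1.63 (SD, n = 8) in EGFRvIII and 6.70 to 9.97 in the mutant groups.

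Among the 6 mutants, the moderated F test of limma called 0.576% of genes and none of the family (0 of 3). The largest differences between mutant means were 2.93 for Mycn (adjusted p = 0.09), 2.05 for Myc (adjusted p = 0.219) and 1.62 for Mycl (adjusted p = 0.516). The unadjusted p of the F test was 0.00159 for Mycn and 0.0207 for Myc, both under 0.05, and 0.284 for Mycl. Without the 4 arrays that stood apart, the range of the Mycn means was 1.36 and the gene was called (adjusted p = 0.0343), where 0.305% of genes were. Those 4 arrays held the lowest Mycn readings, 7.53 to 9.61, so leaving them out lowers the spread of this gene by construction. The range then ran from D842V at 11.95 to E7 del at 13.30, with D842V in the lower and E7 del in the upper range of title numbers. On the second Mycn probe set, the mutant means ranged over 0.68 (adjusted p = 0.89).

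Each mutant was also set against EGFRvIII, comparisons that share the EGFRvIII arrays. For E10 del, 18.4% of genes were called (7.22% higher, 11.2% lower), and of the family Mycn and Myc were among them, both lower. The brighter Mycn probe set read 7.18-fold less than in EGFRvIII (difference of -2.84 ± 0.60, adjusted p = 0.0059) and Myc 3.15-fold less (-1.65 ± 0.53, adjusted p = 0.0329), with 3 of 5 E10 del arrays below all EGFRvIII arrays for either gene. These 3 were the arrays that stood apart. Without the 4 such arrays, the differences were -0.30 ± 0.31 for Mycn and 0.061 ± 0.51 for Myc, and neither was called (adjusted p = 0.882 and 0.989). With the title range as a block neither was called (Mycn -2.98, adjusted p = 0.2; Myc -0.93, adjusted p = 0.686), and with the neuron mean as a covariate Myc was not (-0.73, adjusted p = 0.345). The second Mycn probe set gave 0.38 in the same comparison (adjusted p = 0.592).

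For D842V, where 3.14% of genes were called (1.42% higher, 1.72% lower), the brighter Mycn probe set was 2.41-fold lower than in EGFRvIII (-1.27 ± 0.60, adjusted p = 0.244). This missed the threshold, though the groups did not overlap. The difference was the same and was called without the 4 arrays that stood apart, where the SE was smaller (-1.27 ± 0.22, adjusted p = 0.00109). It was also called with array weights (-1.11, adjusted p = 0.0149), a setting that called 2668 genes, against 371 in the main fit. In the main fit the second Mycn probe set differed by -0.29 (adjusted p = 0.8). D842V lay in the lower and EGFRvIII in the upper range of title numbers, so the range and the genotype cannot be told apart.

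For E10 del.v2, with 7.06% of genes called (2.29% higher, 4.78% lower), the largest of the family's differences was that of Mycl, at 1.44 ± 0.61 (adjusted p = 0.122). It was called without the 4 arrays that stood apart (1.83 ± 0.52, adjusted p = 0.0462), where 406 genes were called, against 834 in the main fit. It was also called with the neuron mean as a covariate (1.92 ± 0.60, adjusted p = 0.0479) and without EGFRvIII replicate 7 (adjusted p = 0.0367). The Mycl difference was 0.40 ± 0.63 without EGFRvIII replicates 4, 5 and 6, in which Mycl was lowest (adjusted p = 0.892). No family member was called in V544ins, C450 ins or E7 del, where 4.06%, 0.0254% and 0.5% of genes were. Of all genes, 2.02% were higher and 2.04% lower in V544ins, 0.0169% and 0.00847% in C450 ins, and 0.212% and 0.288% in E7 del. The differences of Mycn were -0.57, -0.30 and 0.088 in these groups, those of Myc -0.076, -0.32 and 0.13, and those of Mycl 0.48, 0.83 and 1.29.

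Levels were then described across the amount of host brain. The 15 arrays with the highest neuron means (9.63 to 11.61) held 4 D842V, 3 E10 del, 3 E10 del.v2, 3 V544ins, 1 C450 ins and 1 EGFRvIII array. The 15 with the lowest (4.89 to 7.77) held 5 EGFRvIII, 3 V544ins, 2 C450 ins, 2 E7 del, 1 D842V, 1 E10 del.v2 and the WT array. The arrays next to the upper boundary had neuron means of 9.63 on both sides.

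Myc had medians of 7.90 in the arrays richest in brain, 8.94 in the middle 15 and 9.42 in the poorest, with ranges of 5.50 to 9.93, 8.15 to 9.51 and 8.12 to 10.08. The brighter Mycn probe set had medians of 12.09, 13.09 and 13.14, and its 6 lowest values, from 7.53 to 11.99, all lay in the brain-rich 15. On the second Mycn probe set the medians were 6.14, 6.58 and 5.96. Mycl was highest in the middle 15, with medians of 6.36, 7.87 and 7.30, and it ranged from 4.38 to 9.62 in the brain-poor 15. The Myc median was thus lowest in the arrays rich in brain, while Mycl and the second Mycn probe set had their highest median in the middle.

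**Figure D2:**
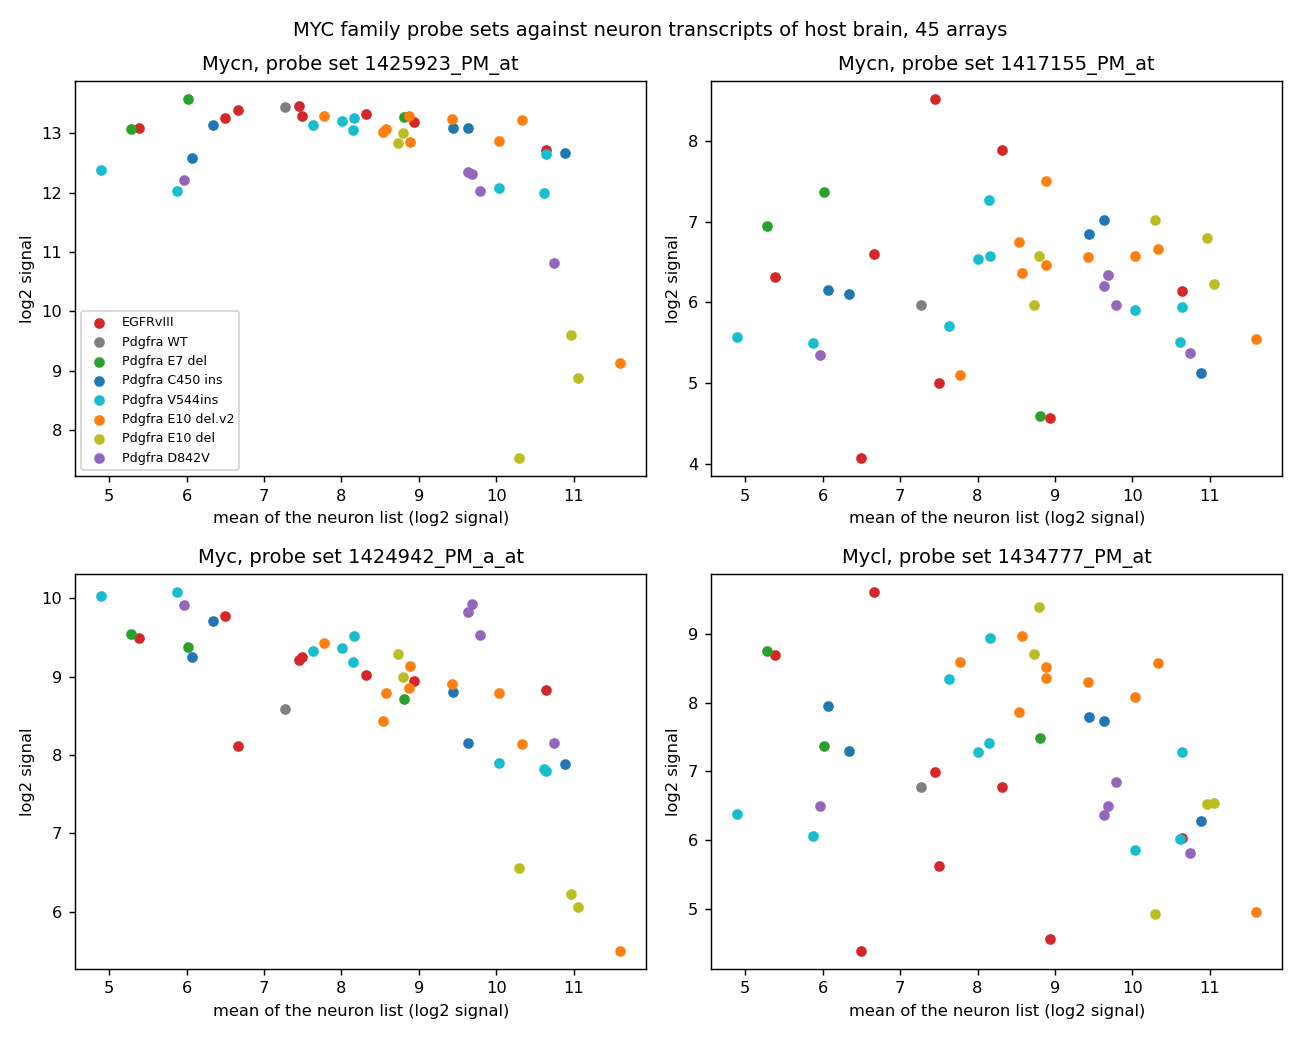
Log2 signal of the 2 brighter Mycn probe sets, Myc and Mycl (vertical axes) against the mean log2 signal of the neuron list (horizontal axes), with 1 point per array coloured by genotype. Myc falls across the whole range of the neuron mean, whereas the brighter Mycn probe set is low in 4 arrays with neuron means from 10.29 to 11.61. The other arrays within that span of neuron means read 10.81 to 13.23 on this probe set.

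The slope on the neuron mean, fitted within genotypes, was negative and called for all 3 genes. Of all genes tested, 38.9% were called negative, 25.3% positive and 64.2% in either direction. Myc changed by -0.40 ± 0.07 log2 units per unit of the neuron mean (adjusted p = 1.96e-06, limma). The slope of Mycn on the brighter probe set was -0.22 ± 0.10 (adjusted p = 0.0481) and that of Mycl -0.29 ± 0.11 (adjusted p = 0.0273). The Myc slope was also called without the 4 arrays that stood apart, at -0.30 ± 0.04, and in either range of title numbers, at -0.43 and -0.32. Of all genes, 34.7% were called negative without the 4 arrays, 32.3% in titles 1 to 30 and 10.4% in titles 41 to 64. The slopes of Mycn and Mycl were not called without the 4 arrays, at -0.047 (adjusted p = 0.311) and -0.17 (adjusted p = 0.17). On the second Mycn probe set the slope was -0.026 ± 0.089 (adjusted p = 0.807).

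The cell cycle list moved with the neuron mean too: all 19 measured genes had a negative slope and were called, with a median slope of -0.41 against -0.04 over all genes tested. Within titles 1 to 30, 18 of 19 were called negative (median -0.51), where 32.3% of all genes were. Within titles 41 to 64, 0 of 19 were (median -0.28), where 10.4% of all genes were. With the cell cycle mean as a further covariate the Myc slope was -0.12 ± 0.05 (adjusted p = 0.0453), that of Mycl -0.18 (adjusted p = 0.349) and that of Mycn 0.13 (adjusted p = 0.3). In that fit 16.5% of all genes were called negative.

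V544ins and E10 del.v2 were the groups with arrays in both ranges of title numbers. In V544ins, Myc read 7.81, 7.90 and 7.80 in the lower range and 9.18 to 10.08 in the upper, without overlap. The difference was 1.74 ± 0.59 (adjusted p = 0.0378, limma within these 18 arrays, where 29.7% of genes were called). The neuron mean was 10.43 in the lower and 7.12 in the upper range, and the cell cycle mean 6.69 and 8.53. In E10 del.v2 the difference of Myc was -0.29 ± 0.59 (adjusted p = 1), and 0% of genes were called. The difference between the groups, 2.03 ± 0.84, was not called (adjusted p = 0.132), where 0.0339% of genes were. Without E10 del.v2 replicate 2, which lay in the upper range and stood apart, the Myc difference in E10 del.v2 was 0.28 ± 0.25 (adjusted p = 0.872). The difference between the groups was then 1.46 ± 0.35 and was called (adjusted p = 0.0221), where 9.65% of genes were. Neither Mycn nor Mycl was called in V544ins (adjusted p = 0.497 and 0.294).

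Relations between the members were taken over the 41 arrays that did not stand apart, since the other 4 formed a cluster of their own. Myc and Mycn had a Pearson correlation of 0.0649 and Spearman rho of -0.054 (permutation p adjusted over 69 relations 0.805 and 0.855). Over all 45 arrays the correlation was 0.726, so this pooled value rested on the 4 arrays. Over the 41 arrays it was 0.381 for deviations from the genotype means. In the lower range of title numbers it was 0.0911 and in the upper -0.43. Myc and Mycl had a correlation of -0.0694 (adjusted p = 0.791, permutation test). Mycn and Mycl had 0.397 (rho 0.315, adjusted p = 0.0289 and 0.125, permutation test), which was 0.766 among the 18 arrays of the lower and 0.161 among the 23 of the upper range of title numbers. Over the 38 arrays left without EGFRvIII replicates 4, 5 and 6 it was 0.625 (rho 0.511). All arrays share one normalisation, and p-values come from 100000 permutations.

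The members were also set against the means of the marker lists. Myc followed the mean of the cell cycle list, which holds genes of DNA replication and mitosis, with a correlation of 0.726 and rho of 0.686 (adjusted p = 6.27e-05 and 7.67e-05, permutation test). It was 0.788 and 0.722 in the ranges of title numbers, 0.842 for deviations from the genotype means and 0.67 without the 2 arrays farthest from the median of Myc. The brighter Mycn probe set had 0.109 with this list and Mycl 0.0138 (adjusted p = 0.62 and 0.976, permutation test). The second Mycn probe set had 0.155 with it (adjusted p = 0.475, permutation test). With the neuron mean Myc had -0.644, and with the astrocyte list mean -0.616. Of the 15 lists, the brighter Mycn probe set had its largest correlation in size with the myelinating oligodendrocyte list, at -0.544. There rho was -0.544 (adjusted p = 0.00271 and 0.00122, permutation test), and deviations from the genotype means gave -0.242. Over all 45 arrays that correlation was -0.0662. With the ependyma and choroid plexus list this probe set had -0.487 (rho -0.378, adjusted p = 0.00767 and 0.0508, permutation test).

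Mycl followed the oligodendrocyte progenitor list, which includes Olig1, Olig2, Sox10 and Cspg4, with a correlation of 0.834 and rho of 0.774 (adjusted p = 6.27e-05 and 7.67e-05, permutation test). Within either range of title numbers it was 0.851. Leaving out EGFRvIII replicates 4, 5 and 6 as well, over 38 arrays, it was 0.774. The second Mycn probe set had 0.712 with the same list (rho 0.655) and 0.568 over those 38 arrays, and the brighter one had 0.334 (rho 0.482, adjusted p = 0.0816 and 0.00763, permutation test). With this list Myc had 0.0159. Mycl and the second Mycn probe set were thus high in arrays with high progenitor markers, and Myc in arrays with high cell cycle markers.

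**Figure D3:**
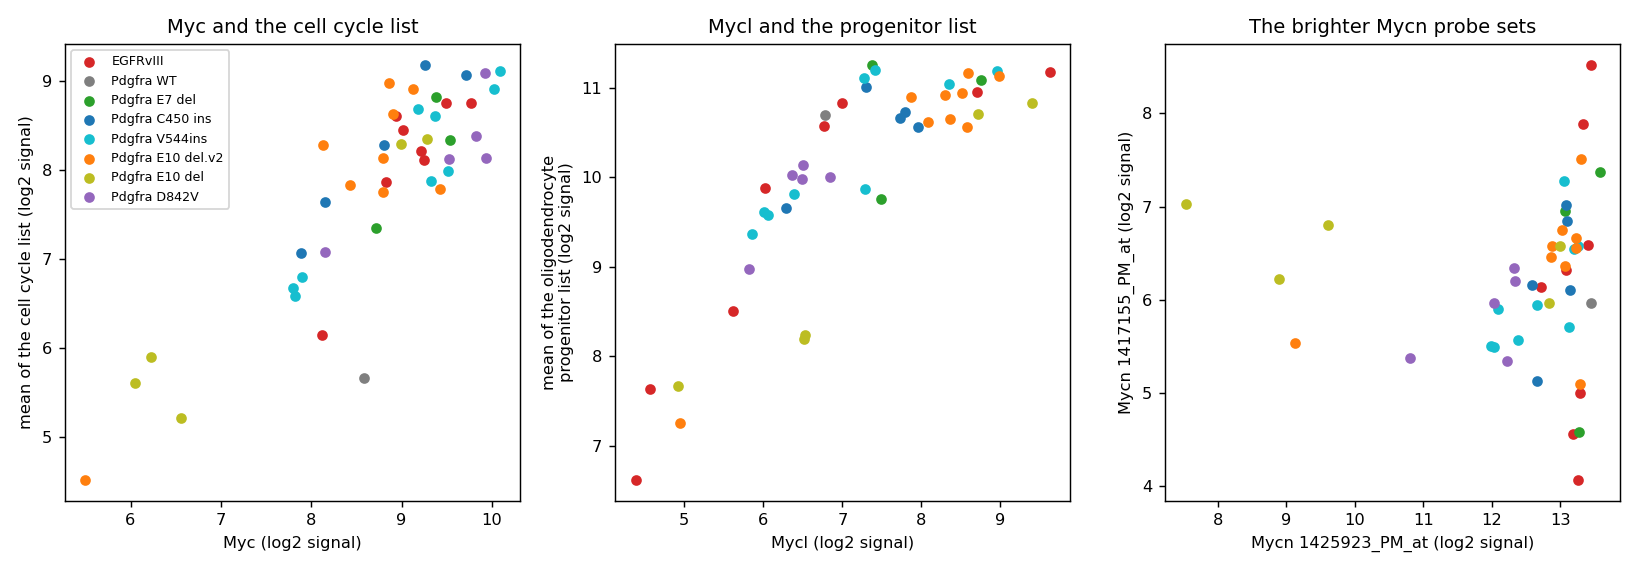
Each point is 1 of 45 arrays coloured by genotype: Myc against the mean of the cell cycle list, Mycl against the mean of the oligodendrocyte progenitor list, and the brighter against the second Mycn probe set, all in log2 signal. Over the 41 arrays that do not stand apart the correlations are 0.726, 0.834 and 0.319; the 4 others are the E10 del and E10 del.v2 points with Mycn 1425923_PM_at below 10.

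The genes most like each member were taken by Pearson correlation over all 45 arrays among 11369 genes, and are descriptions without a test. For Myc they were Cdk4 (0.951), Anp32b (0.951), the RNA-binding protein gene Mex3a (0.945), the nuclear RNA-binding protein gene Hnrnpab (0.94) and the histone deacetylase gene Hdac1 (0.933), and over 41 arrays they had correlations from 0.854 to 0.881. Of these 5 genes, 4 had a promoter window and 2 of the 4 held CACGTG, namely the Cdk4 and Anp32b windows printed, while those of Mex3a and Hnrnpab did not hold it. Myc and Hdac1 had no entry.

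For Mycl they were Hey2, a Notch target (0.914), Ankrd44 (0.89), the collagen gene Col11a2 (0.875), Arl2bp (0.874) and Tnr, the tenascin R gene expressed by oligodendrocyte lineage cells (0.871). Over 41 arrays these had 0.851 to 0.906. For the brighter Mycn probe set they were the G1 cyclin gene Ccnd1 (0.908), Aldh1l2, a mitochondrial folate enzyme gene (0.903), Snx22 (0.894), Tmem176b (0.888) and Zc3hav1 (0.885), and over 41 arrays these had 0.589 to 0.771. For the second Mycn probe set they were Bend4 (0.867), the zinc finger genes Zfp82 (0.813) and Zfp354a (0.811), Slitrk2 (0.795) and Zfp354c (0.761), with 0.789 to 0.868 over 41 arrays. The sets named for the Mycn probe sets shared no gene (0 of 5), which says little where 5 genes are taken from 11369.

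Genes of the MYC pathway were taken from 6 lists. The network partners, which bind MAX or its relative MLX, had 9 measured members, and none was called against EGFRvIII (0 of 9, median difference -0.12, against -0.02 over all genes tested). Mlx differed by 0.20 ± 0.10, Mga by -0.17 ± 0.10, Mxd1 by 0.17 ± 0.12 and Mxd3 by 0.30 ± 0.24. Of the cofactors and regulators of MYC stability 0 of 15 were called. Among them the kinase gene Pim1 differed by -0.37 ± 0.18, Skp2, part of a ubiquitin ligase, by -0.46 ± 0.25, the chromatin remodelling subunit gene Actl6a by -0.51 ± 0.29 and Fbxw7, whose product marks MYC for degradation, by 0.62 ± 0.43.

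Of the MYC targets of ribosome biogenesis 2 of 27 fell and none rose, with a median difference of -0.23. In this list 3 of 27 differences were above 0, where 5623 of all 11809 genes tested were. The 2 called were 7.41% of the list, against 5.35% of all genes tested called lower. Polr1b, a subunit of RNA polymerase I, fell by 0.64 ± 0.16 on the log2 scale (adjusted p = 0.0125) and Nop16, a nucleolar protein gene, fell by 0.52 ± 0.15 (adjusted p = 0.0224). Utp20 and Ppan, which also act in ribosome assembly, differed by -0.41 ± 0.14 and -0.42 ± 0.18 and were not called. Of the MYC targets of metabolism and growth 3 of 23 fell (13.0%) and none rose, with a median of -0.25. The cyclin D2 gene Ccnd2 fell by 1.52 ± 0.31 (adjusted p = 0.00317), Eif4ebp1, an inhibitor of translation initiation, fell by 1.08 ± 0.35 (adjusted p = 0.0451) and Pa2g4 fell by 0.41 ± 0.14 (adjusted p = 0.0497). Odc1, the first enzyme of polyamine synthesis, differed by -0.55 ± 0.22 (adjusted p = 0.102).

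Without EGFRvIII replicates 4, 5 and 6 no gene of these lists of targets was called (0 of 27 and 0 of 23), and their medians were 0.0034 and -0.04. In that setting 54 genes in all were called, against 1051 with every array. With the neuron mean as a covariate 2 of 27 and 1 of 23 were called, where 9.97% of all genes were. With the title range as a block 0 of 27 and 1 of 23 were called, where 2.63% of all genes were. The medians were then -0.14 and 0.0056, with 7 of 27 and 12 of 23 differences above 0.

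Of the genes MYC represses 1 of 8 fell (12.5%), namely the CDK inhibitor gene Cdkn2b, which fell by 2.27 ± 0.35 (adjusted p = 8.84e-05), so its direction was the same as that of the activated targets that fell. In that list 1 member was called also without EGFRvIII replicates 4, 5 and 6. Gadd45a, a gene of the DNA damage response, differed by -1.02 ± 0.35, the CDK inhibitor gene Cdkn1b by -0.29 ± 0.16 and Ndrg2 by 0.38 ± 0.29. In the Sonic hedgehog pathway, an inducer of Mycn, 0 of 8 were called. Its transcription factor gene Gli2 differed by -0.71 ± 0.24, the co-receptor gene Cdon by -1.03 ± 0.36, the transducer gene Smo by -0.59 ± 0.24 and the inhibitor gene Sufu by -0.30 ± 0.15. In the cell cycle list 0 of 19 were called and 0 of 19 differences were above 0, with a median of -0.24. Ccnb2 differed by -0.68 ± 0.47, Tyms by -0.51 ± 0.39, Cdk1 by -0.52 ± 0.50 and Bub1 by -0.50 ± 0.53. Without the 4 arrays that stood apart the median of the cell cycle list was 0.10. In titles 41 to 64 its median was 0.036, and 10 of 19 differences were above 0.

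Along the neuron mean, 0 of 27 ribosome biogenesis targets had a called positive slope and 22 a negative one, with a median of -0.13, and of the metabolism targets 1 rose and 15 of 23 fell, with a median of -0.11. For all genes tested the shares were 25.3% and 38.9%. Among the strongest were Pes1 at -0.19 ± 0.02, Mrto4 at -0.16 ± 0.02, Cdk4 at -0.33 ± 0.05 and the helicase gene Eif4a1 at -0.17 ± 0.03. Of the partners 1 rose and 5 of 9 fell, with Mxd4 at -0.19 ± 0.03 and Mga at -0.09 ± 0.02. Of the cofactors 1 rose and 8 of 15 fell, with Fbxw7 at 0.62 ± 0.04 and Actl6a at -0.32 ± 0.05.

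The repressed genes went both ways, 3 up and 4 down of 8, with Clu at 0.34 ± 0.04 and Ndrg2 at 0.31 ± 0.05, both expressed by astrocytes. Of the Sonic hedgehog genes 2 rose and 2 of 8 fell, with Boc at 0.15 ± 0.05 and Gli2 at 0.16 ± 0.05. In the cell cycle list Kif11 had a slope of -0.41 ± 0.07 and Tyms one of -0.39 ± 0.07. With the cell cycle mean as a covariate, 8 of 27 ribosome biogenesis targets and 5 of 23 metabolism targets had a negative slope that was called, where 16.5% of all genes did. Among the mutants the F test called none of the 6 lists' genes (0 of 27 and 0 of 23 in the lists of targets).

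**Figure D4:**
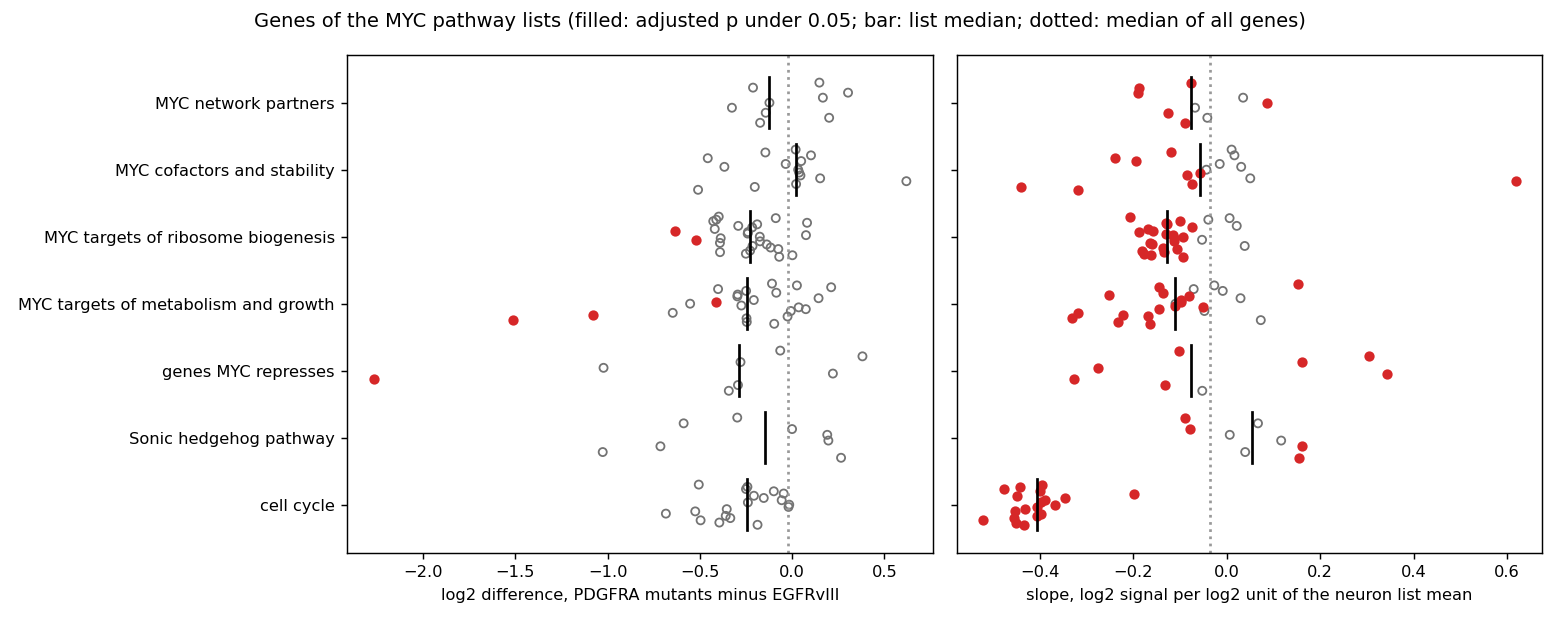
Each point is a gene of the MYC pathway lists or the cell cycle list, placed by its log2 difference between the PDGFRA mutants and EGFRvIII (left axis, log2) or by its slope per log2 unit of the neuron mean (right axis). Filled points have an adjusted p under 0.05, bars are list medians and dotted lines the medians of all genes tested, -0.02 and -0.04; the cell cycle list has a median slope of -0.41.

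Across arrays, the means of the target lists were set against each member. Over 41 arrays the ribosome biogenesis mean had a correlation of 0.715 with Myc (rho 0.781, adjusted p = 6.27e-05 and 7.67e-05, permutation test), 0.00304 with the brighter Mycn probe set and -0.447 with Mycl (adjusted p = 0.998 and 0.0125). For Mycl, rho was -0.276 (adjusted p = 0.174, permutation test), and the correlation was -0.233 without the 2 arrays farthest from the median of Mycl, -0.0829 in the lower and -0.637 in the upper range of title numbers. The second Mycn probe set had -0.403 with the ribosome biogenesis mean (rho -0.289, adjusted p = 0.0271 and 0.166, permutation test). The metabolism mean had 0.697 with Myc, 0.349 with the brighter Mycn probe set, -0.19 with the second and -0.296 with Mycl. For deviations from the genotype means these Myc correlations were 0.746 and 0.773. The Cdk4 signal is part of the metabolism mean. Mycl and the second Mycn probe set had negative correlations with the mean of the Sonic hedgehog list, -0.66 and -0.584, and over the 38 arrays left without EGFRvIII replicates 4, 5 and 6 these were -0.47 and -0.356. The brighter Mycn probe set had -0.199 with that list over 41 arrays (adjusted p = 0.346, permutation test).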

How the data were processed

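Total RNA from 45 mouse brain samples was labelled and hybridised to Affymetrix arrays, per the labels' protocols. The deposited log2 signal of 45141 probe sets had been made by the authors with RMA, per the submitters' processing notes, and the version is not given in the sources used here. Probe sets were named from the platform annotation: 28898 had 1 symbol, 551 several and 15692 none. The probe set with the highest mean stood for a gene, and 11809 of 17097 genes had 3 or more arrays over 4.79, the median of the table. Signal over background, not a count, limits precision, and depth does not apply to arrays.

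Groups came from the labels' genotype. limma (version 3.58.1, R 4.3.3; lmFit and eBayes) was fitted over all 8 groups, p-values were adjusted by Benjamini-Hochberg over the 11809 genes, and genes are called where that value is below 0.05. The contrast of mutants with EGFRvIII averages the 6 mutant groups with equal weight. Relations used 100000 two-sided permutations over 41 arrays, and not the 45 first planned, because 4 arrays formed a cluster, with adjustment over 69 relations. The smallest p that permutations can give is 1e-05. The fits were tested on simulated data.

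The members, lists and tests were chosen with earlier results of these data known. Genes were named by a rule: all members, up to 4 genes per list with the smallest p against EGFRvIII, up to 2 with the smallest p for the slope, and the 5 genes most correlated with each member over 45 arrays. The comparison of title ranges, the left-out sets of arrays and the further relations were chosen after seeing the data.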

Additional observations from a re-analysis of the deposited data

Results flagged for a closer look

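Of 42 groups of member values tested, 6 held an array far from the rest of its genotype by Dixon's criterion, where chance gives about 1 in 20 for a single group. The groups share arrays and genes and are not independent, so their number cannot be set against that share. E10 del.v2 replicate 2, one of the 4 arrays that stood apart, accounted for 4 of the 6. It read 5.50 for Myc (nearest array 8.13), 4.95 for Mycl on 1434777_PM_at (nearest 7.87), 2.86 for Mycl on 1422088_PM_at (nearest 3.47) and 9.13 for Mycn on 1425923_PM_at (nearest 12.86). Its neuron mean was 11.61 and its cell cycle mean 4.51. D842V replicate 1 accounted for the other two, at 8.15 for Myc (nearest 9.53) and 10.81 for Mycn on 1425923_PM_at (nearest 12.03). Its neuron mean was 10.75 and its cell cycle mean 7.08. The part of these properties in the readings was not tested.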

How the results depend on the processing

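No paired analysis was possible because the replicate numbers were given in accession order and pair no samples. Where a result changed, the cause was not tested, apart from settings that by construction use fewer arrays or another probe set. Against EGFRvIII, the mutants' Myc difference turned to 0.086 with the title range as a block, 0.035 with the neuron mean as a covariate, 0.12 with neuron and myelinating oligodendrocyte lists as the host brain measure and 0.13 without both sets of arrays (the 4 that stood apart and EGFRvIII replicates 4, 5 and 6). That of Mycn turned to 0.092 and 0.061 on its other probe sets. That of Mycl turned to -0.049 on 1422087_PM_at and -0.29 without EGFRvIII replicates 4, 5 and 6. With 1 array left out in turn these differences ran from -0.50 to -0.26 for Myc, -1.02 to -0.79 for Mycn and 0.43 to 1.18 for Mycl.

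Among the mutants, array weights gave called ranges of means of 3.27 for Myc, 3.68 for Mycn and 1.93 for Mycl, in a setting that called 10855 genes. Without the 4 arrays, and without both sets, that of Mycn was 1.36 and called, and without both sets that of Mycl was 2.66 and called. These settings called 0.305% and 2.07% of all genes. With 1 array left out the Mycn range ran from 2.22 to 3.59, and it was called without E10 del.v2 replicate 2 or E10 del replicate 4 or 5.

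The Mycn slope lost its call without the filter (-0.22), with the mean of all probe sets (-0.065), on 1417155_PM_at (-0.026), with array weights (-0.14), in titles 41 to 64 (-0.18) or 1 to 30 (-0.30), with the wider host brain measure (-0.32), without EGFRvIII replicates 4, 5 and 6 (-0.22), without the 4 arrays (-0.047) and without both sets (-0.047). It turned to 0.050 on 1425922_PM_a_at and 0.13 with the cell cycle covariate. It ran from -0.26 to -0.14 with 1 array left out and lost its call in 25 of 44 such fits. The Mycl slope lost its call on 1422087_PM_at (-0.064), in titles 41 to 64 (-0.31) or 1 to 30 (-0.26), with the wider host brain measure (-0.33), with the cell cycle covariate (-0.18), without the 4 arrays (-0.17) and without both sets (-0.18). It ran from -0.35 to -0.23 with 1 array left out and lost its call without E10 del.v2 replicate 2 or EGFRvIII replicate 8. The Myc slope stayed negative and called in these settings, where from 2661 to 8447 genes were called in all.

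Single mutants against EGFRvIII turned as follows. With the neuron covariate, Myc was 0.00976 in C450 ins, 0.039 in E10 del.v2, -0.26 in E7 del and 0.15 in V544ins, Mycl 0.25 in D842V and Mycn -0.12 in E7 del. With the wider host brain measure, Myc was 0.15 in C450 ins, 0.089 in E10 del.v2, -0.46 in E7 del and 0.45 in V544ins, Mycl 0.29 in D842V and Mycn -0.21 in E7 del. With the title range as a block, Myc was 0.41 in C450 ins and 0.17 in V544ins, and in titles 41 to 64 it was 0.51 in V544ins. With array weights, Mycl was -0.82 in E10 del, Mycn -0.10 in E7 del and Myc 0.28 in V544ins, and with the cell cycle covariate Myc was 0.084 in V544ins. With quantile normalisation Mycn was -0.00136 in E7 del. On 1417155_PM_at, Mycn was 0.12 in C450 ins, 0.38 in E10 del and 0.26 in E10 del.v2. On 1425922_PM_a_at it was 0.23 in E10 del, 0.12 in E10 del.v2, -0.032 in E7 del and 0.14 in V544ins. On 1422087_PM_at, Mycl was -0.18 in C450 ins, -0.00187 in E7 del and -0.17 in V544ins, and on 1422088_PM_at -0.10 in C450 ins and -0.032 in V544ins. Without EGFRvIII replicates 4, 5 and 6, Mycl was -0.21 in C450 ins, -0.40 in E10 del and -0.56 in V544ins and Myc 0.070 in V544ins. Without both sets, Mycl was -0.21 in C450 ins and -0.56 in V544ins, and Myc 0.21 in E10 del and 0.070 in V544ins. Without the 4 arrays Myc was 0.061 in E10 del. With 1 array left out, Myc ran from -0.028 to 0.38 in E7 del and -0.21 to 0.075 in V544ins, Mycl from -0.50 to 0.25 in D842V and Mycn from -0.048 to 0.21 in E7 del. The E10 del difference of Mycn ran from -3.50 to -2.13, called each time, and that of Myc from -2.12 to -1.31, not called without E10 del replicate 1, 2 or 3 or EGFRvIII replicate 5 or 6. That of Mycn also lost its call with the cell cycle covariate (-1.82) and the mean of all probe sets (-0.74). It did so too with the wider host brain measure (-2.41), with only the arrays compared (-2.84) and without both sets (-0.28). That of Myc lost its call with the cell cycle covariate (-0.48), the wider host brain measure (-0.79) and only the arrays compared (-1.65). Without EGFRvIII replicates 4, 5 and 6 it was -1.51 and not called.

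As Spearman's rho, Mycn had -0.054 with Myc and -0.00296 with the cell cycle list. Over all 45 arrays, Myc and Mycl had 0.249 and the Mycn probe sets 1425923_PM_at and 1425922_PM_a_at had -0.135. Genes called numbered 1051 for the mutants against EGFRvIII (54 without EGFRvIII replicates 4, 5 and 6 to 2239 without EGFRvIII replicate 1), 68 among the mutants (0 in titles 41 to 64 to 10855 with array weights) and 7580 for the slope (2661 in titles 41 to 64 to 8447 without the filter).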
